A study of Mus musculus with 48 samples.

Results

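The genes described here are 10 genes of secreted and membrane proteins of neurons, several of which are known to be transcribed in step with neuronal activity: Bdnf, Ntf3, Ntrk2, Nptx1, Nptx2, Nptxr, Nrn1, Vgf, Scg2 and Inhba. They were taken by name as neurotrophin, pentraxin, neuritin and granin genes with Inhba added, and are 10 of the 48795 genes in the count table. The choice was made with earlier results of these data known. All 10 passed the filter on low counts, among 20010 genes tested. The products of Ntrk2 and Nptxr are membrane-bound and not released ligands, so the set is not wholly one of secreted proteins. The study sequenced cortical RNA of 48 mice, 1 library each, at an age of 6 months and on a background listed as C57BL/6. The groups were wild type (WT; 3 females and 4 males), Q140 (4 and 4), Msh3+/- (5 and 4), Q140 x Msh3+/- (4 and 4), Msh3-/- (4 and 4) and Q140 x Msh3-/- (4 and 4). Q140 mice are heterozygous for a knock-in of an expanded CAG repeat into Htt, which encodes huntingtin; the allele sits at its own locus and is not driven by a transgene promoter. Msh3+/- and Msh3-/- are labelled as 1 and 2 altered alleles of Msh3, which encodes a DNA mismatch repair protein, and no group shares a further allele or agent in the labels.

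Neurons release these proteins from dense-core vesicles or hold them at synapses. BDNF and neurotrophin-3 are neurotrophins, growth factors that bind Trk receptors, and Ntrk2 encodes TrkB, the receptor of BDNF. The cortex is known as a main source of the BDNF that reaches the striatum, the brain region most affected in Huntington's disease. Neuronal pentraxins gather AMPA-type glutamate receptors at excitatory synapses, neuritin is a small surface protein that promotes neurite growth, granins fill dense-core vesicles and are cut into peptides, and Inhba encodes the subunit of activin A. Activity-dependent transcription of some of them is known to run through CREB, a factor that binds the cAMP response element (CRE), so promoter sequence is shown before the values.

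RefSeq promoter windows (GRCm38.p6, 250 bases before to 50 after a start) were found for 5 of the 10 genes: 7 for Bdnf, 2 for Ntf3 and 1 each for Ntrk2, Scg2 and Inhba. They were searched for the CRE letters TGACGTCA, which read the same on both strands, and for the shorter TGACG or CGTCA, its match on the other strand. The longer match was in 1.79% of all 32851 windows and the shorter in 20.8%, and each longer match holds both shorter ones. Among the 12 windows of these genes, 2 held a shorter match and 1 of those, that of Scg2, the longer one. Both are printed with the match in capitals, because Scg2 and Bdnf are the members whose windows hold it.
Scg2, chr1:79439977-79440276, minus strand: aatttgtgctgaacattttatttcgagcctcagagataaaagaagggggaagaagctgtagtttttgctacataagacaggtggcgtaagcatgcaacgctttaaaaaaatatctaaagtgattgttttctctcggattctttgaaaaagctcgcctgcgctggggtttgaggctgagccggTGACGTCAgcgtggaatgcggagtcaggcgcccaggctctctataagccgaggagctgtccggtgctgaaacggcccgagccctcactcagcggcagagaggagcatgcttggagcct
Bdnf, window with a match, chr2:109692186-109692485, plus strand: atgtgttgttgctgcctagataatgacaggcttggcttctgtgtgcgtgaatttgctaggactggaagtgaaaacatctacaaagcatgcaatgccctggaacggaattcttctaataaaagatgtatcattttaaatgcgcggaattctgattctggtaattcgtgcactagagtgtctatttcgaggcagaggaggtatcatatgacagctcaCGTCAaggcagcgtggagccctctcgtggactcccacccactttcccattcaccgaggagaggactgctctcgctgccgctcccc
In the Scg2 window the match begins 68 bases before the start, and in the Bdnf window 35 bases before it. The other 6 Bdnf windows and those of Ntf3, Ntrk2 and Inhba held neither run of letters. A match is a stretch of letters and was not tested as a binding site.

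By length-scaled level (FPKM, fragments scaled by gene length and depth, from the authors' table), the genes spread over a wide range, and all 10 were detected in every mouse. Nptxr, the membrane-bound pentraxin, was highest at 205 ± 18.9 FPKM (mean ± SD over 48 mice), and its lowest mouse, at 176, stood above the highest mouse of Nrn1, at 123. Nrn1 (neuritin) stood at 106 ± 7.84 FPKM and Nptx1, a secreted pentraxin, at 86.3 ± 5.03, with overlapping mice. The granins Scg2 and Vgf, at 65.3 ± 7.82 and 64.2 ± 10.4 FPKM, and the BDNF receptor gene Ntrk2, at 56.1 ± 3.83, did not differ beyond their spread in this order. Nptx2, the pentraxin also known as Narp, was at 15.8 ± 3.97 FPKM, with no mouse in common with Ntrk2 above or Bdnf below. Bdnf (4.13 ± 1.0 FPKM) and Inhba (2.87 ± 0.65) overlapped, and Ntf3, the gene of neurotrophin-3, was lowest at 0.335 ± 0.106. The coefficient of variation between mice was between 5.83% (Nptx1) and 9.22% (Nptxr) for Nptx1, Ntrk2, Nrn1 and Nptxr, 12% for Scg2 and 16.2% for Vgf, and from 22.6% (Inhba) through 24.2% (Bdnf) and 25.1% (Nptx2) to 31.6% for Ntf3, which also has the fewest reads.

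The libraries held between 35.9 M and 64.5 M counts. Among the targeted genes, Htt had group means of 237 to 242 CPM (counts scaled to the library total) and did not separate the groups. Msh3 separated the 3 Msh3 labels without overlap but in the direction of more RNA: no mouse without an altered allele was above 25.9 CPM, the mice labelled Msh3+/- were between 61.2 and 77.4, and those labelled Msh3-/- between 99.1 and 125. The labels thus went with more, not less, counted Msh3 RNA, and the Msh3 groups below are named by their labels. Summed markers of cortical excitatory neurons were between 334 and 404 FPKM in all mice, while the choroid plexus markers ran from 1.08 to 904 FPKM. Male libraries 1 of Q140, 2 of Msh3+/- and 4 of Q140 x Msh3-/- stood apart from the other 45 on the second principal component of log2 CPM. Bulk tissue cannot tell fewer cells of a type from less RNA per cell. By position (GRCm38), Ntrk2, Nrn1 and Inhba lie on chromosome 13 with Msh3, 33.4, 55.5 and 76.2 Mb away, and Vgf and Nptx2 on chromosome 5 with Htt, 102 and 110 Mb away, and the other 5 on other chromosomes.

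**Figure D1:**
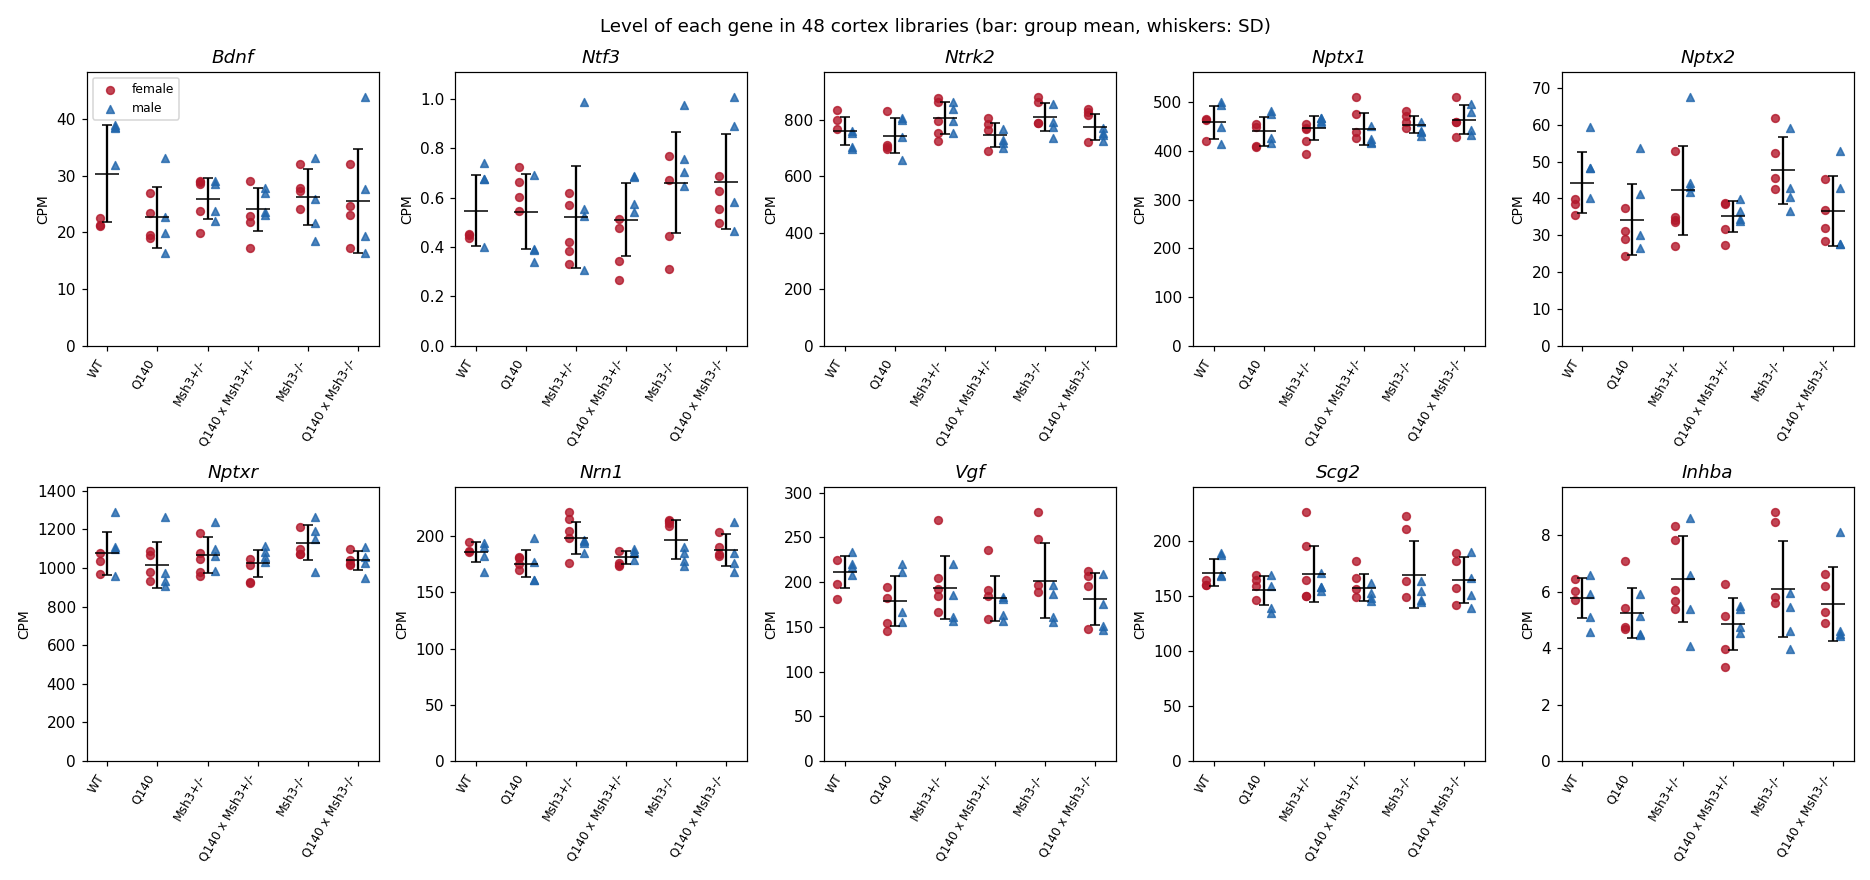
Level of each gene in CPM (vertical axes, starting at 0) in each of the 48 mice, by genotype (horizontal axis) and sex (circles female, triangles male), with the group mean and SD. Bdnf shows the WT males at 31.8 to 38.9 CPM above the WT females at 21.1 to 22.6, and Nptx2 has lower means in all 3 Q140 groups than in their controls.

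The first question was whether the Q140 allele changed these genes, taken within each Msh3 label and then as the average of the 3 effects. None of the 10 genes was called, at an adjusted p under 0.05 from edgeR's quasi-likelihood test, in any of the 4 comparisons. In all, 0.01% of tested genes were called in Q140 against WT, 0.015% in Q140 x Msh3+/- against Msh3+/-, 0% in Q140 x Msh3-/- against Msh3-/- and 0.035% for the average, so calls were rare for any gene. Their values nevertheless lay on one side: in the average, 9 of 10 were below 0, with a median log2 change of -0.10, beside a median of -0.000255 over all tested genes, of which 50.3% lay below 0. Without adjustment, 8 of the 10 had p under 0.05, all lower in carriers, beside 3.14% of all tested genes lower at that p. The members vary together between mice (their correlations follow), so these 8 are not 8 separate observations. They were also chosen with earlier results of these data known, so the 2 shares do not compare an unselected set with all genes.

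Nptx2 had the smallest p. Its CPM ran from 35.6 through a median of 40.1 to 59.4 in WT and from 24.4 through 30.6 to 53.7 in Q140, with means of 44.3 ± 8.22 (SD, n = 7) and 34.2 ± 9.62 (n = 8). In Q140 x Msh3+/- it was 35.2 ± 4.22 (n = 8) beside 42.2 ± 12.2 in its controls (n = 9). The Q140 x Msh3-/- mice stood at 36.7 ± 9.45 beside 47.7 ± 9.14 in theirs (n = 8 each). Carriers were the lower group under each Msh3 label, although the ranges overlapped each time, and 6, 8 and 6 of 8 carriers were below the median of their controls. The average Q140 effect on Nptx2 was -0.34 ± 0.08 (log2, SE), a fold of 0.792, with unadjusted p = 0.000224 and adjusted p = 0.238. Its separate effects were -0.36 ± 0.15, -0.26 ± 0.14 and -0.39 ± 0.15. The other pentraxins stood closer to 0: Nptxr averaged -0.09 ± 0.03 (adjusted p = 0.735), with all 8 Q140 x Msh3-/- mice below the median of Msh3-/-, and Nptx1 -0.01 ± 0.03 (95% interval -0.06 to 0.04).

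Bdnf, the ligand of TrkB, ran from 21.1 through a median of 31.8 to 38.9 CPM in WT and from 16.3 through 21.3 to 33.2 in Q140. The means were 30.4 ± 8.54 (SD, n = 7) and 22.6 ± 5.36 (n = 8), and 7 of 8 Q140 mice were below the WT median, yet the ranges overlapped. The change was -0.40 ± 0.16 (log2, SE; adjusted p = 0.892). With the altered Msh3 labels it was -0.12 ± 0.15 and -0.05 ± 0.15, and the average was -0.19 ± 0.09 (adjusted p = 0.856). The WT values fell apart by sex, and they are given by sex further on. The tests of the difference between the Q140 effects gave 0.28 ± 0.22 for Msh3+/- and 0.35 ± 0.22 for Msh3-/- against the effect in WT, with 95% intervals of -0.16 to 0.73 and -0.10 to 0.80. Ntrk2, the receptor gene, averaged -0.07 ± 0.03 (adjusted p = 0.720), from a mean of 808 ± 56.2 CPM in Msh3+/- to 746 ± 42.2 in Q140 x Msh3+/-, its widest gap. Ntf3 averaged 0.00 ± 0.12, with an interval of -0.24 to 0.24. That interval holds the averages of all the other members except Nptx2 (-0.34).

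The granins among the members, Vgf and Scg2, also lay lower in carriers. For each of them, though, only 4 of 8 Q140 x Msh3-/- mice were below the median of Msh3-/-. Vgf, whose product is cut into several neuropeptides, ran from 181 through a median of 217 to 234 CPM in WT and from 145 through 174 to 221 in Q140. Its change there was -0.25 ± 0.11 (log2, SE), with -0.08 ± 0.10 and -0.15 ± 0.11 under the other Msh3 labels and an average of -0.16 ± 0.06 (adjusted p = 0.720). Scg2, which encodes secretogranin II and carries the CRE letters printed above, stood at 171 ± 12 CPM in WT and 155 ± 13.4 in Q140. Its separate changes were -0.15 ± 0.08, -0.10 ± 0.08 and -0.04 ± 0.08, and the average was -0.10 ± 0.05 (adjusted p = 0.835). Nrn1 varied little between mice: its separate changes were -0.09 ± 0.05, -0.13 ± 0.04 and -0.07 ± 0.04, and the average was -0.09 ± 0.03 with unadjusted p = 0.000714 and adjusted p = 0.370. All 8 Q140 x Msh3+/- mice had Nrn1 below the Msh3+/- median of 197 CPM, within overlapping ranges. Inhba stood at 4.87 ± 0.92 CPM in Q140 x Msh3+/- and 6.45 ± 1.53 in Msh3+/-, a change of -0.39 ± 0.14, and averaged -0.22 ± 0.08 (adjusted p = 0.727).

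**Figure D2:**
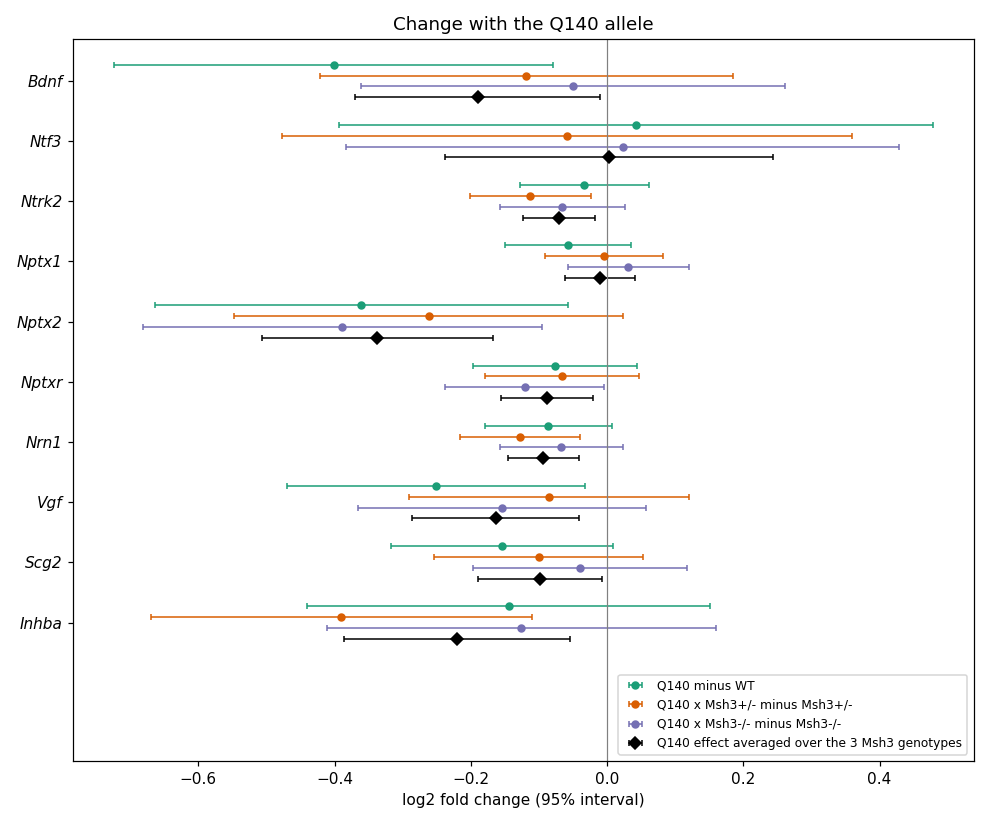
Change of each gene with the Q140 allele, as log2 fold change with its 95% interval (horizontal axis), under each Msh3 label (circles) and averaged over the 3 (diamonds). The averages of Nptx2, Nrn1, Inhba, Vgf, Ntrk2, Nptxr, Scg2 and Bdnf lie below 0 with intervals that do not reach it before adjustment over all genes, while those of Nptx1 and Ntf3 span 0.

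Other values moved with this average. All 12 immediate early genes of a list drawn up beside the members, transcription factors and other early targets of neuronal activity such as Fos, Arc and Egr1, lay below 0, with a median of -0.23, 1 at unadjusted p under 0.05 and 0 called. All 5 choroid plexus markers lay below 0, each at unadjusted p under 0.05, with a median of -1.29. All 5 astrocyte markers lay below 0 (median -0.05, 2 at unadjusted p under 0.05) and all 5 microglia markers above 0 (median 0.03, 0 at that p). Of 5 oligodendrocyte markers, 4 lay below 0 (median -0.07, 0 at that p), and of 9 neuropeptide genes, 8 (median -0.05, 2 at that p). Leaving out the 3 libraries with the highest Ttr, the main choroid plexus transcript, gave 7 of 10 members at unadjusted p under 0.05 and a median of -0.10. Leaving out the 3 on the second principal component gave 7 of 10 and a median of -0.10. With only the 2 effects under altered Msh3 labels averaged, 5 of 10 reached that p, 9 of 10 still lay below 0 and the median was -0.09. The part of the early genes, the neuropeptide genes and the astrocyte, microglia and oligodendrocyte markers in the result was not tested.

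Other genes of the same pathways, from lists fixed with the members, were not called in any Q140 comparison. Of 10 tested genes of the neurotrophin system (receptors, sorting and processing proteins), 8 lay below 0 in Q140 against WT, with a median of -0.05. Furin, a protease that cuts the precursor of BDNF, had the smallest p of them at -0.13 ± 0.06 (log2, SE; adjusted p = 0.892), followed by Plat, tissue plasminogen activator, at -0.13 ± 0.06. Of the 5 pentraxin partners, the AMPA receptor subunit genes and Adam17, 3 lay below 0, led by Adam17 at -0.05 ± 0.04 and Gria3 at -0.03 ± 0.04. Of 14 granin and dense-core vesicle genes, 8 lay below 0, led by Resp18 at -0.08 ± 0.04 and Cpe, a carboxypeptidase that trims peptide precursors, at -0.05 ± 0.03. Of 14 activin genes, 8 lay below 0: Smad7, an inhibitor of the pathway, was at -0.24 ± 0.07 and Fst, which encodes the activin-binding protein follistatin, at -0.31 ± 0.12 (adjusted p = 0.822 and 0.892). Of 9 neuropeptide genes, 7 lay below 0, with Crh, corticotropin-releasing hormone, at -0.38 ± 0.13 (adjusted p = 0.822) and Vip at -0.14 ± 0.07. The neuritin paralogue Nrn1l was at -0.35 ± 0.30. Of the immediate early genes, 10 of 12 lay below 0, with Egr3 at -0.34 ± 0.16 and Fosb at -0.42 ± 0.23.

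The second question was whether the Msh3 labels changed these genes, with and without Q140. No member was called, where 0.025% of tested genes were called in Msh3+/- against WT, 0.035% in Msh3-/- against WT, 0.02% in Q140 x Msh3+/- against Q140 and 0.045% in Q140 x Msh3-/- against Q140. The comparisons with WT share the WT mice with each other and with the Q140 comparison, and those with Q140 share the Q140 mice. In Q140 x Msh3-/- all 10 genes lay above Q140, with a median log2 change of 0.08, and Nrn1, at 188 ± 14.4 beside 176 ± 12.1 CPM, had a change of 0.10 ± 0.04 (SE; adjusted p = 0.515), the only one with unadjusted p under 0.05. Without the 3 libraries on the second principal component, 1 in each of these groups, 4 of 10 lay below 0, the median was 0.03 and 0 had unadjusted p under 0.05. With all libraries, Bdnf in Q140 x Msh3-/- changed from Q140 by 0.17 ± 0.16 and Ntf3 by 0.26 ± 0.21, with Ntf3 at 0.664 ± 0.192 CPM beside 0.544 ± 0.152. In Q140 x Msh3+/- 8 of 10 lay above Q140, with a median of 0.02, but without those 3 libraries 6 of 10 lay below it (median -0.0064). The immediate early list went the other way with all libraries. In Q140 x Msh3-/- 11 of its 12 genes lay below Q140 (median -0.395, 3 at unadjusted p under 0.05 and 0 called). In Q140 x Msh3+/- 11 of 12 also lay below Q140 (median -0.09, 1 at that p and 0 called). Against WT, 7 of 10 members lay below in Msh3+/- (median -0.03) and 4 of 10 in Msh3-/- (median 0.07). With the plate column as a factor, 4 of 10 lay below in Msh3+/- (median 0.04), where Bdnf was then at -0.02 ± 0.17. Without that factor Bdnf stood at -0.20 ± 0.16 and -0.18 ± 0.16 in the altered groups, while Ntrk2 was at 0.08 ± 0.05 and 0.09 ± 0.05 and Nrn1 at 0.09 ± 0.05 and 0.08 ± 0.05. Each of these has a 95% interval that includes 0. Neither difference between Q140 effects called a gene: the share called was 0% of all tested genes for Msh3+/- and 0% for Msh3-/-, and no member reached unadjusted p under 0.05 in them.

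Sex was balanced within groups apart from WT and Msh3+/-, and was taken next. Between males and females of all genotypes 5.56% of tested genes were called, and 0 of the 10 members. As males minus females, Ntf3 stood at 0.30 ± 0.12 (log2, SE; adjusted p = 0.127) and Nptx2 at 0.18 ± 0.08 (adjusted p = 0.203), while Nrn1 stood at -0.06 ± 0.03 (adjusted p = 0.183) and Scg2 at -0.10 ± 0.05 (adjusted p = 0.212). These 4 had unadjusted p under 0.05, 2 in each direction, beside 20.7% of all tested genes at that p. With the plate column as a factor Ntf3 was called, at 0.40 ± 0.12 (adjusted p = 0.032), and it was the only member called under any alternative. Of the related lists, Chga, which encodes chromogranin A, fell in males (-0.17 ± 0.03, adjusted p = 0.000317), as did the neurotrophin sorting receptors Sorcs2 (-0.12 ± 0.03, adjusted p = 0.0087) and Sort1 (-0.05 ± 0.01, adjusted p = 0.0304). Pdyn, prodynorphin, rose by 0.23 ± 0.04 (adjusted p = 4.8e-05), and the immediate early genes Fosb, Egr4 and Junb rose by 0.50 ± 0.13, 0.45 ± 0.13 and 0.55 ± 0.17 (adjusted p = 0.0164, 0.0261 and 0.0424). All 12 immediate early genes lay higher in males, with a median of 0.38.

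The sexes were taken apart because earlier results of these data showed that activity genes differ between WT males and females. The comparisons of WT and Q140 mice by sex therefore follow a pattern already seen and are not independent of it. Within WT, Bdnf separated the sexes. The 3 WT females had 21.1, 21.3 and 22.6 CPM and the 4 WT males 31.8, 38.5, 38.5 and 38.9. Every male lay above every female, but how many of all genes separated these mice in this way was not counted. The difference was 0.77 ± 0.22 (log2, SE), a fold of 1.71, with unadjusted p = 0.00136 and adjusted p = 0.132. Of all tested genes, 0.17% were called and 11.3% had unadjusted p under 0.05. Elsewhere the sexes of the controls overlapped, with Bdnf at 26 ± 4.08 CPM in female and 25.8 ± 3.47 in male Msh3+/- mice (SD, n = 5 and 4) and 27.8 ± 3.23 and 24.7 ± 6.33 in Msh3-/- (n = 4 each). The immediate early list moved with it: all 12 lay higher in WT males, with a median of 1.13, 8 at unadjusted p under 0.05 and 0 called. The 5 choroid plexus markers were also higher in WT males, with a median of 2.18, while all 5 microglia and all 5 astrocyte markers were lower, with medians of -0.192 and -0.0945 and 2 of each at unadjusted p under 0.05. The part of these lists in the Bdnf difference was not tested. Without the 3 libraries with the highest Ttr, the difference was 0.84 ± 0.24 (adjusted p = 0.169). Among those 3 is WT male 3, which had the lowest Bdnf of the WT males, at 31.8 CPM, so leaving it out raises their mean.

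The Q140 change was then taken in each sex. The 4 Q140 males had 16.3, 19.9, 22.7 and 33.2 CPM and the 4 Q140 females 18.9, 19.6, 23.5 and 27. In males the change from WT was -0.68 ± 0.20 (log2, SE; adjusted p = 0.302, with 0.01% of tested genes called) and in females 0.04 ± 0.22 (0.005% called). The test of the difference gave -0.72 ± 0.30, with a 95% interval of -1.34 to -0.11 and adjusted p = 0.648, and called 0% of tested genes. Scg2 in males stood at 168, 169, 187 and 189 CPM in WT and 134, 139, 159 and 169 in Q140, a change of -0.25 ± 0.11 (adjusted p = 0.491). Its change in females was -0.02 ± 0.12, and the test of the difference gave -0.23 ± 0.16, with a 95% interval of -0.55 to 0.09 (adjusted p = 0.747). The means of Ntf3 lay on opposite sides in males and females: WT males had 0.400, 0.674, 0.676 and 0.741 CPM and Q140 males 0.340, 0.390, 0.391 and 0.692, whereas WT females had 0.438, 0.450 and 0.454 and Q140 females 0.547, 0.601, 0.664 and 0.726. The Ntf3 females did not overlap and the males did, but how many of all genes did not overlap was not counted. By the edgeR test the Ntf3 change was -0.45 ± 0.28 in males (adjusted p = 0.671) and 0.50 ± 0.31 in females (adjusted p = 0.996). The difference between the sexes was -0.95 ± 0.42 (adjusted p = 0.651). Nptx2 and Vgf lay lower in both sexes, Nptx2 at -0.37 ± 0.20 in males and -0.32 ± 0.22 in females and Vgf at -0.22 ± 0.14 and -0.25 ± 0.15. Without the 3 libraries on the second principal component, 1 of them a Q140 male, the Nptx2 change in males was -0.23 ± 0.19. With each WT and Q140 mouse left out in turn, Nptx2 ran from -0.59 (without Q140 male 4) to -0.23 (without Q140 male 1) in males and from -0.43 to -0.22 in females. Vgf ran from -0.30 to -0.13 in males (the last without Q140 male 1) and from -0.32 to -0.16 in females (the last without WT female 1). In the same way Scg2 in males ran from -0.31 to -0.19, and the Ntf3 difference between the sexes from -1.24 to -0.84. Over the other alternatives that Ntf3 difference ran from -0.97 to -0.23, with unadjusted p under 0.05 in 10 of 11. With the plate column as a factor, 0 of 10 members had unadjusted p under 0.05 in the difference between the sexes. The immediate early list had medians of -0.775 in males (12 of 12 below 0) and 0.52 in females (11 of 12 above 0). In males all 5 microglia markers lay above 0 (median 0.19, 4 at unadjusted p under 0.05) and all 5 choroid plexus markers below 0 (median -1.38, 2 at that p). The part of these lists in the changes by sex was not tested. No column of the library plate held both WT and Q140 males, so a plate effect there is judged only through the other groups. With the plate column as a factor the Bdnf differences were 0.63 ± 0.23 between the WT sexes, -0.46 ± 0.24 for Q140 in males and -0.31 ± 0.345 for the difference between the sexes (adjusted p = 0.379, 0.842 and 0.991). In females Bdnf was then at -0.15 ± 0.24, below 0, and at -0.0043 with quality weights. Without the 3 libraries on the second principal component they were 0.77, -0.61 and -0.66. With each WT and Q140 mouse left out in turn, the Bdnf difference between the WT sexes ran from 0.74 to 0.84, the change in males from -0.91 to -0.55 and the difference between the sexes from -0.95 to -0.59, and 0 of 10 members were called each time.

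**Figure D3:**
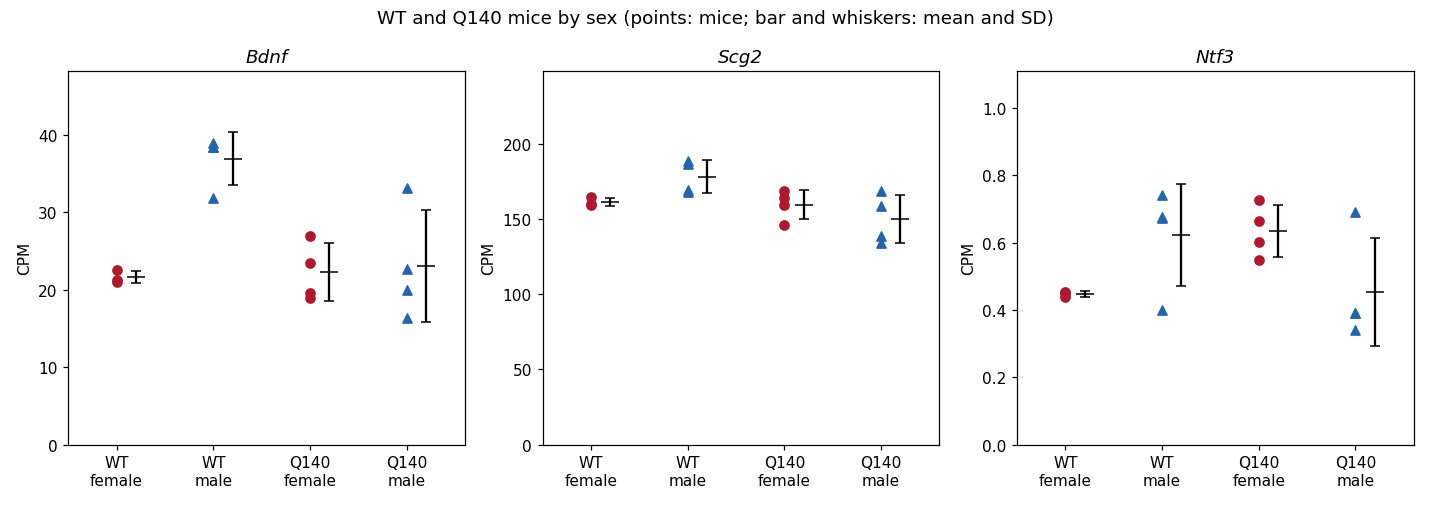
CPM (vertical axes, starting at 0) of Bdnf, Scg2 and Ntf3 in each WT and Q140 mouse by sex, with mean and SD beside the points. The WT males stand above the other 3 sets of mice in Bdnf, apart from 1 Q140 male at 33.2 CPM that lies within their range.

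The third question was whether these genes vary together between mice of the same genotype and sex. Each level was taken as log2 CPM minus the mean of its genotype and sex, and Pearson's r was computed over the 48 mice for all 45 pairs, with a permutation test of 100000 resamples within genotype and sex and Benjamini-Hochberg adjustment over the 45. The correlation was positive in 39 pairs, with a median r of 0.30, and 19 passed, all positive, of which 17 also passed by Spearman's rho. The share of all gene pairs that would pass was not computed. These counts thus do not show that the members vary together more than other genes do. Nptx2 and Vgf were the closest pair, with r = 0.78 and rho = 0.74 (permutation p = 1e-05, the smallest that this many resamples can give, adjusted p = 0.00015), and r = 0.74 without the 2 mice farthest from the median of Nptx2. Vgf and Scg2, the granins, followed with r = 0.75 and rho = 0.76 (permutation p = 1e-05, adjusted p = 0.00015; r = 0.69 without 2 mice). Bdnf and Nptx2 gave r = 0.75 and rho = 0.68 (permutation p = 2e-05, adjusted p = 0.00015; r = 0.70 without 2 mice). With the plate column of each library's well removed as well, these 3 were at r = 0.79, 0.71 and 0.73. Without the 3 libraries on the second principal component they were at 0.715, 0.72 and 0.72, and 15 of 45 pairs passed.

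Bdnf, Nptx2, Vgf, Scg2, Inhba and Nrn1 formed a block in which all 15 pairs passed by r, from 0.39 (Nrn1 with Inhba) to 0.78, and 2 of them, Nrn1 with Nptx2 and Nrn1 with Inhba, did not pass by rho. Ntrk2 passed with Inhba (r = 0.57), Scg2 (r = 0.545) and Vgf (r = 0.51), and was at r = 0.14 with Bdnf, the ligand of its product (permutation adjusted p = 0.526). Ntf3 and Nptxr formed a pair of their own, with r = 0.65 and rho = 0.59 (permutation p = 4e-05, adjusted p = 0.000257; r = 0.60 without 2 mice), although one is the lowest and the other the highest of the 10 by FPKM. Nptx1 passed with no other member: it was at r = 0.37 with Vgf (permutation adjusted p = 0.0506) and -0.35 with Ntf3 (permutation adjusted p = 0.0506), the most negative of the 45. The 3 pentraxin genes thus did not form a block, with r = 0.36 for Nptx2 and Nptxr, 0.29 for Nptx1 and Nptx2 and -0.29 for Nptx1 and Nptxr. With the plate column removed as well, Nptx1 was at r = 0.52 with Vgf, 0.415 with Ntrk2 and 0.40 with Nptx2. Without the 3 libraries on the second principal component these were 0.32, 0.24 and 0.21. Which pairs of Nptx1 passed under these settings is not given here. Depth and RNA quality are shared by all genes of a library, mice that share a stem of the deposited name may not be independent, and their part in these correlations was not tested.

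**Figure D4:**
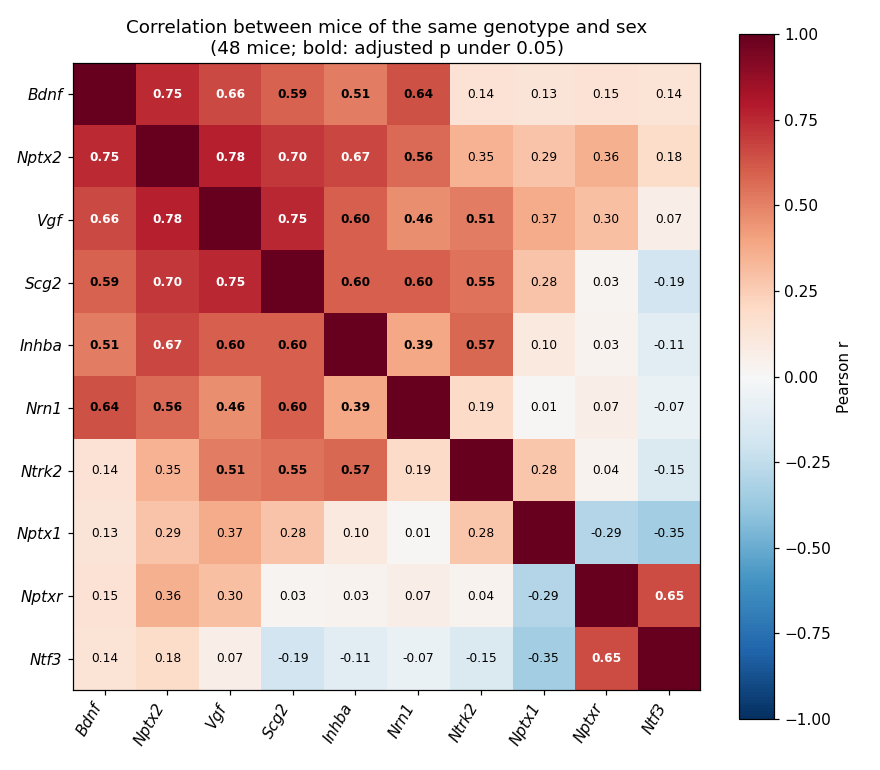
Pearson's r between the 10 genes over 48 mice, after removing the mean of each genotype and sex (colour scale from -1 to 1, bold where the adjusted p is under 0.05). The 6 genes at the upper left correlate with each other at 0.39 to 0.78, and Nptxr and Ntf3 at 0.65.

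As a description, the genes most like each member were sought in the same way over the 48 mice among 13260 genes with a mean of at least 1 CPM. Nptx2 and Vgf shared their nearest gene, Egr3, an activity-regulated transcription factor, at r = 0.85 and 0.88. Nptx2 was followed by Slc23a3 and Kcnf1 (0.83 and 0.81), and Vgf by Sgsm1 and Spred3 (0.85 and 0.84). Bdnf was nearest to Dusp4, a phosphatase of MAP kinases, at r = 0.84, then Fosl2 and Zdbf2 (0.81 and 0.80). Scg2 had Dclk1, Crh and Pja1 at 0.767, 0.758 and 0.755, and Inhba had Bhlhb9, Plekhh2 and Etv5 at 0.76, 0.75 and 0.71. Nptxr was nearest to Sdc3, Ccdc3 and Marcksl1 (0.85, 0.84 and 0.82) and Nptx1 to Spsb1, Slc36a1 and Islr2 (0.79, 0.76 and 0.75). Ntf3 was nearest to Akna, Wfs1 and Camk2d (0.75, 0.715 and 0.67), and Ntrk2 to Zdhhc14, Ppm1h and Tanc1 (0.75, 0.74 and 0.725). Nrn1 had the weakest neighbours, Rpl36al, Rp9 and Cap2, at 0.66, 0.655 and 0.64. These genes share the libraries and their depth with the members.

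Some counts could hold reads of overlapping genes. Bdnf overlaps an antisense gene, Gm45346, with 849 counts over all mice beside 57494 for Bdnf. Nrn1 overlaps Fars2 on the other strand, with 18943 counts beside 419222, and Nptxr overlaps Npcd on its own strand, with 2063 beside 2368232. The library kit keeps strand, but how counting used it is not given in the sources used here, so the split between such genes is uncertain.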

How the data were processed

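Cortex RNA of 48 mice was analysed, 1 library each, made with a stranded TruSeq kit per the labels. The authors' deposited table holds raw read counts per gene, as whole numbers, and a second deposited table holds FPKM values of the same genes. Tools named in the submitters' processing notes are HTSeq 0.12.3, SAMtools 1.10 and STAR 2.7.5c, on GRCm38, and the strand setting and annotation release are not given in the sources used here. The 10 genes, the related lists and the tests were chosen with earlier results of these data known.

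Counts were fitted in R 4.3.3 with edgeR 4.0.16: filterByExpr by genotype, TMM factors, 6 genotypes plus sex over all mice, quasi-likelihood F-tests and Benjamini-Hochberg adjustment over 20010 genes, with a call at adjusted p under 0.05. Comparisons within a sex used 12 genotype-by-sex means. Standard errors were derived from the F statistic, and 95% intervals from it and the total degrees of freedom of the test (residual plus prior). CPM uses TMM-scaled totals and compares groups, and FPKM compares genes. Correlations used log2 CPM with a prior count of 1. Totals ran from 35.9 M to 64.5 M, so only Ntf3, at under 1.1 CPM, is limited by depth. No library was a copy of another of its group (lowest chi-square per degree of freedom 4.09 in 169 pairs). Positions are from GENCODE M21. The script was tested on simulated data.

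All 10 members are named. Of each related list, every called gene and, in Q140 against WT, the 2 genes with the smallest p are named, as are the 3 genes most like each member. Alternatives were RLE size factors, 2 other low-count filters, DESeq2 1.42.0, limma 3.58.1 (voom with quality weights, voom with the stem of the deposited name as a random block, estimated in 1 pass, and log2 of FPKM plus 0.1 or 1), no sex term, plate column, replicate block, and leaving out 3 libraries apart on the second principal component or 3 with the highest Ttr. An average over the altered Msh3 labels alone and each WT and Q140 mouse left out in turn were added after seeing the data. The 83 of 150 gene and comparison pairs followed through them were also chosen after their values were seen.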

Additional observations from a re-analysis of the deposited data

Results flagged for a closer look

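In each of the 60 sets of a gene and a genotype group, the highest and the lowest mouse were compared with the next, and 2 stood apart from the other mice of their group by Dixon's criterion, where chance alone gives 3. Ntf3 was at 0.988 CPM in male 2 of Msh3+/-, with the next mouse at 0.618 and the lowest at 0.309. That library is 1 of the 3 apart on the second principal component. Vgf was at 236 CPM in female 2 of Q140 x Msh3+/-, with the next mouse at 191 and the lowest at 156.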

How the results depend on the processing

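The count of members called was 0 in all 15 comparisons and stayed 0 under every alternative run, with 1 exception: with the plate column as a factor, 1 member was called between the sexes, Ntf3, higher in males by 0.40 (log2; adjusted p = 0.032). The count of members below 0 at unadjusted p under 0.05 in the averaged Q140 effect was 8, and 7 or 8 under the other tools, filters, scalings and terms, but 5 with the altered Msh3 labels alone. With each WT and Q140 mouse left out in turn, 0 members were called in the 4 comparisons by sex, Bdnf in Q140 against WT females ran from -0.061 to 0.11 and Scg2 there from -0.041 to 0.025. Of the 83 changes followed, 74 kept their direction under every other alternative, and 23 of 1049 alternatives reversed one. Over all 150 pairs of gene and comparison, 115 kept it and 72 of 1895 reversed.

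The cause of the reversals was not tested. Bdnf in Q140 x Msh3-/- against Q140 was -0.0039 with the plate column and -0.0012 without the 3 on the second principal component, and Bdnf in Q140 against WT females -0.0043 with quality weights and -0.151 with the plate column. Ntf3 in Q140 against WT was -0.0128 and -0.0447, and in Q140 x Msh3+/- against Msh3+/- 0.0675 and 0.0763. The averaged Q140 effect on Ntf3 was -0.00024, -0.0097, -0.0425, -0.0079 and -0.0178, and -0.0131 with the replicate block. Nptx1 reversed to 0.0048, 0.0047, 0.0188 and 0.0015 in Q140 x Msh3+/- against Msh3+/-, -0.0129 in Q140 x Msh3-/- against Msh3-/-, 0.0134 in the average over the altered Msh3 labels, and -0.0037, -0.00033 and -0.0017 between the sexes. Of the 45 correlations, 19 passed, and 19 with FPKM, 15 without the 3 on the second principal component and 21 with the plate column. The replicate block changed no call: mice with the same number and sex had a mean correlation of deviations of -0.013, beside 0.00474 for other numbers, so the numbers did not pair the mice. Mice that share the stem of the deposited name had a mean of 0.142 (23 pairs, 0.0368 to 0.311), beside -0.00324 for other stems.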
